A study of Mus musculus with 8 samples.

Results

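The RNAs described here are 5 short noncoding RNAs of the nucleus: Rpph1 and its relative Rprl3, Rmrp, Rn7sk and Scarna2. They are 5 of the 48526 genes in the count table of RNA-seq of the mouse neuro-intermediate lobe (NIL), the rear of the pituitary, which holds the melanotropes. Rprl3 was selected because its counts in the transgenic groups stood above those of WT. The other 4 were selected because their counts were high.

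The 8 libraries, each from a pool of 5 lobes, fell into 4 groups of 2: WT, ACreb3l2, AXBP1, and ACreb3l2/AXBP1. The labels give the strain C57B6 to all of them, and the study's methods describe male mice in early adulthood. ACreb3l2 and AXBP1 are acidic dominant negative proteins that pair with Creb3l2 or XBP1, a pair of bZIP transcription factors, and keep them off DNA. A rat POMC promoter drives each transgene in melanotropes, and the study shows a single line of each transgene while stating that another line gave like results, which was not analysed here. WT mice carry neither transgene and ACreb3l2/AXBP1 mice carry both. Labels and columns give no batch, litter or day, so the lines and the groups cannot be told apart. The comparisons ask how inhibition of either factor, or of both, moved these RNAs.

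Rpph1 is the RNA subunit of RNase P, the ribozyme that cuts the 5′ leader from precursor tRNAs. Rmrp is the RNA of RNase MRP, a sister enzyme that shares most of its proteins with RNase P and cuts precursor ribosomal RNA in the nucleolus. Rn7sk, the 7SK RNA, holds the elongation kinase P-TEFb inactive together with the proteins Hexim1, Larp7 and Mepce. Scarna2 is a guide RNA of Cajal bodies, where spliceosomal RNAs are modified. Rprl3 is annotated as a gene like that of the RNase P RNA. Rpph1, Rmrp and Rn7sk are made by RNA polymerase III from promoters that lie outside the transcribed part, and they carry no poly(A) tail.

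All places are from the GENCODE M21 annotation of mm10, counted from 1, and all 5 genes lie on the minus strand. Rpph1 (ENSMUSG00000092837) is a ribozyme gene of 319 bases at chr14:50807449-50807767. It lies within an exon of Ccnb1ip1 for 284 of its bases, on the same strand, and lies 74 bases from Parp2. Rprl3 (ENSMUSG00000088025) is a ribozyme gene of 290 bases at chr8:3803069-3803358, between genes, with its nearest neighbours Gm24934 and Gm7381 at 21939 and 38738 bases. Rmrp (ENSMUSG00000088088) spans 271 bases at chr4:43492788-43493058 and overlaps an exon of Ccdc107 on the opposite strand by 159 bases. A lincRNA entry of the same name (ENSMUSG00000115420) covers all 271 bases on the same strand and has no counts of its own here. Rn7sk (ENSMUSG00000065037) spans 331 bases at chr9:78175303-78175633. Scarna2 (ENSMUSG00000088185) spans 414 bases at chr3:108554338-108554751 and overlaps no other gene.

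The sequences of Rprl3 and Rpph1 are shown because the counts of Rprl3 depend on telling them apart. Capitals mark the bases that differ between them, all of the 3′ tail of Rprl3, which aligned poorly to Rpph1, and the stretch of Rpph1 that Rprl3 lacks. Rprl3 is printed whole and Rpph1 from base 1 to base 257, 5′ to 3′ as DNA letters of the RNA strand, read from GENCODE M21 transcripts on mm10.
Rprl3: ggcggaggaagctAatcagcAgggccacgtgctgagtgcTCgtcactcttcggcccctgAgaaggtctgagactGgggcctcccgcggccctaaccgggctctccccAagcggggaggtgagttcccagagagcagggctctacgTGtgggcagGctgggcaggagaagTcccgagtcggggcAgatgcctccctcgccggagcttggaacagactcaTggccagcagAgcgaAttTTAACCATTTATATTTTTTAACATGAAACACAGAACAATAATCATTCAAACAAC
Rpph1: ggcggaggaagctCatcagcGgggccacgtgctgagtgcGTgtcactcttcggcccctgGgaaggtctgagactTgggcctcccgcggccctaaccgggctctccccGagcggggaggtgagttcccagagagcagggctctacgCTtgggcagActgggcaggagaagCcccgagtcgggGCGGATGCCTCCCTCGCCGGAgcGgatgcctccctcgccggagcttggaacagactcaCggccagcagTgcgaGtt

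Over the first 236 bases of Rprl3, 15 bases differed from Rpph1, an identity of 93.6%. Counted from the 5′ end of Rpph1, the first differences were C14A and G21A, with the base of Rpph1 written first. The longest stretch with no difference was 37 bases, shorter than a read of 50 bases. Rpph1 holds 2 tandem copies of a stretch of 21 bases (182 to 202), of which Rprl3 lacks the first and holds the other with the change G205A. Bases 237 to 290 of Rprl3 form a 3′ tail, of which 43 bases could be aligned to Rpph1, with 18 of them different and at most 5 alike in a row.

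The reads were 50 bases long, so each gene was cut into all windows of that length. None of the 241 windows of Rprl3 occurred in Rpph1, but 21 came within 1 mismatch of it, 54 within 2 and 98 within 3. The windows within 1 mismatch started at bases 76 to 96. Of the 241 windows, 7 were shared with Rprl2, another RNase P RNA-like gene. Of the 270 windows of Rpph1, 184 were shared with Ccnb1ip1, whose exon covers them. Reads were counted by gene, and the alignments behind them were not used here, so which bases of Rprl3 gave its reads was not tested.

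**Figure D1:**
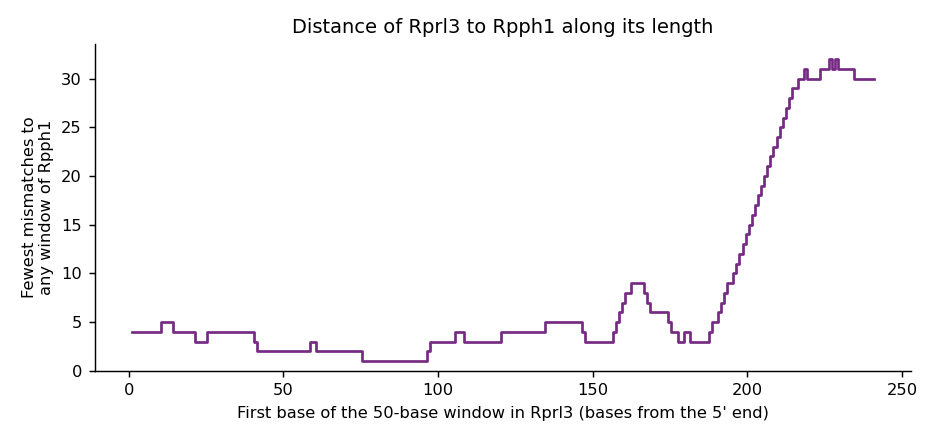
Fewest mismatches between each 50-base window of Rprl3 and any window of Rpph1 on either strand (y axis), by the first base of the window in Rprl3 (x axis, bases from the 5′ end). The lowest stretch, at 1 mismatch, starts at bases 76 to 96, and the line climbs where windows enter the 3′ tail of Rprl3.

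The start of Rn7sk is shown because it holds the GATC letters of the hairpin that is known to bind Hexim1. Capitals mark each GATC, and which of them lie in that hairpin was not examined here. These are bases 1 to 100 of the 331, from GENCODE M21 on mm10, at chr9:78175534-78175633 on the minus strand.
Rn7sk: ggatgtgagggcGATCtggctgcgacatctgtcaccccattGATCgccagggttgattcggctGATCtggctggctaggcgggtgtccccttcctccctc

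All 3 matches to GATC in Rn7sk fell within this stretch. Rn7sk shared 192 of its 282 windows with 7 other annotated copies, and each library held 415 to 656 counts over those copies together, against 408379 or more counts of Rn7sk. How reads that match several places were counted is not stated, so these counts do not show how much each copy gave. For Rmrp, 75 of 222 windows were shared with Ccdc107. None of the 365 windows of Scarna2 was shared with another gene in the table.

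Total counts per library ran from 28256086 to 37988912. Normalized counts are counts divided by the library size scaled with TMM factors (0.913 to 1.1), set back to the mean depth. WT replicate 2 had the lowest factor and the largest share of Pomc counts, 14.6% against 6.91% to 11.8% in the other 7 libraries. The label names melanotropes as the cell type, and Pomc, the hormone precursor that defines them, was high throughout, but whole lobes were dissected. Markers of pituicytes, axons, endothelium, macrophages, fibroblasts, blood and the anterior lobe had counts in these libraries, with none of the 24 other-cell markers at 0 in all. The summed level of the 5 melanotrope markers was 3616000 to 5404000 normalized counts in WT and 2147000 to 2918000 in ACreb3l2/AXBP1. Most of this sum was Pomc, which held 10.5% and 14.6% of counts in WT and 8.76% and 6.91% in ACreb3l2/AXBP1. The sum therefore says little of the other melanotrope markers. The summed level of the 5 anterior lobe markers was 147900 to 226300 in WT and 75710 to 76870 in AXBP1. In ACreb3l2/AXBP1 the sums for pituicytes (15460 to 18210), endothelium (3406 to 4106) and fibroblasts (15900 to 19070) lay above those in WT (12600 to 15120, 2436 to 3004 and 11550 to 15650). The pituicyte sum also lay above WT with ACreb3l2 (15340 to 17940), and the endothelial sum with AXBP1 (3240 to 4008). What part these shifts had in the values of the 5 RNAs was not tested. In such bulk samples fewer cells of a type and less RNA per cell cannot be told apart. The study measured less total RNA in the transgenic lobes, with synergy of the transgenes. It also found denser nuclei, which it reads as smaller melanotropes. Values here are relative to library depth and do not give the amount of an RNA per lobe or per cell. The labels state that ribosomal RNA was depleted, whereas the methods text of the study describes a stranded mRNA kit. Replication-dependent histone mRNAs, which lack a poly(A) tail, held 0.113% to 0.159% of counts.

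The 5 RNAs together held 1.83% to 2.66% of the counts of a library. Their share was 2.25% ± 0.581 (SD, n = 2) in WT, 2.09% ± 0.183 with ACreb3l2, 2.03% ± 0.156 with AXBP1 and 2.03% ± 0.0352 with both transgenes. The 3 transgenic means lay within 1 SD of the WT mean. Both extremes of the range were WT libraries. Between 2 groups of 2 libraries no exact test of such a share can reach 0.05, and none is given.

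Per kilobase the order of levels was the same in each of the 8 libraries. Rn7sk stood first, with a mean of 1404000 normalized counts per kilobase, followed by Rpph1 with 548700, Rmrp with 130200 and Scarna2 with 23640. Rprl3 came last, with 460 normalized counts per kilobase. The lowest library of each RNA lay above the highest library of the next RNA in this order. Of its 50-base windows Rn7sk had 90 of 282 unique, Rpph1 86 of 270 and Scarna2 all 365. Reads of shared windows may be missing from these levels, and what part this had in the order was not tested. By counts Rn7sk ranked 2 or 3 among the genes of a library, and Rpph1 from 4 to 8. In the FPKM of the authors, Rn7sk ran from 59330 to 83200 and Rpph1 from 14560 to 39040. The level of Scarna2 ran from 746 to 1144 FPKM.

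Rprl3 was all but absent from WT and was counted in every transgenic library. Its raw counts were 0 and 2 in WT, 176 and 281 with ACreb3l2, 203 and 124 with AXBP1, and 187 and 71 with both transgenes. The lowest transgenic library held 71 counts and the highest WT library 2, so that WT overlapped with none of the 3 groups. This is the difference for which Rprl3 was selected, and it is given as a description with no test. Its normalized counts were 1.091 ± 1.54 (SD, n = 2) in WT, 236.2 ± 120 with ACreb3l2, 171.9 ± 40.6 with AXBP1 and 124.0 ± 86.2 with both transgenes. In the FPKM of the authors the WT libraries were listed at 0 and 0.414, and the transgenic libraries at 14.7 to 63.5.

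From summed counts, 457 in ACreb3l2 against 2 in WT, the ratio of rates was 218, with an exact 95% counting interval from 60.1 to 1810. For AXBP1 the ratio was 169, with 327 counts and an interval from 46.5 to 1410. For ACreb3l2/AXBP1 it was 117, with 258 counts and an interval from 32.2 to 975. These intervals cover counting error only, since reads without molecular identifiers are not independent molecules, and they leave out the spread between pools. They describe the counts that selected Rprl3 and are not a test of its difference from WT. Both WT counts came from replicate 2, and with that library left out WT was at 0 and gave no ratio. Without WT replicate 1 the ratios were 103, 79.8 and 55.3, and without ACreb3l2/AXBP1 replicate 1 or 2 the last was 61.3 or 180. Rprl3 passed the limit on low counts through the transgenic groups alone.

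Between the transgenic groups no difference in Rprl3 was called. Its log2 change was 0.44 ± 0.562 (SE) for ACreb3l2 against AXBP1, with an edgeR adjusted p of 0.907. It was -0.93 ± 0.571 for ACreb3l2/AXBP1 against ACreb3l2, with an adjusted p of 0.722, and -0.48 ± 0.577 against AXBP1, with an adjusted p of 0.805. The change against ACreb3l2 ran from -1.89 without ACreb3l2/AXBP1 replicate 1 to -0.30 without ACreb3l2 replicate 2, and was called only without the limit on low counts (adjusted p = 0.00115). The 95% intervals of these log2 changes were wide, from -0.91 to 1.8, from -2.3 to 0.44 and from -1.87 to 0.9. The 2 libraries of ACreb3l2/AXBP1 stood apart, at 185 and 63.0 normalized counts, and the 3 groups overlapped.

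Set against Rpph1 in the same library, Rprl3 was rare. There were 0 and 0.00729 counts of Rprl3 per 1000 counts of Rpph1 in WT, 0.84 and 1.95 with ACreb3l2, 1.49 and 0.822 with AXBP1, and 1.24 and 0.481 with both transgenes. The means were 1.39 ± 0.782 (SD, n = 2) with ACreb3l2, 1.15 ± 0.469 with AXBP1 and 0.86 ± 0.535 with both transgenes. The 3 transgenic groups overlapped in this ratio. WT replicate 2 had the most Rpph1 of all libraries, 299200 normalized counts, and 2 reads of Rprl3.

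A single other gene showed this pattern across libraries. Of 48526 genes, 2 had at most 2 counts over both WT libraries and at least 10 in each of the 6 transgenic libraries: Rprl3 and Ccnb1ip1, the gene whose exon covers Rpph1. No gene met the limits with WT and transgenic libraries exchanged, which then allow at most 2 counts over 6 libraries and so are not alike. Ccnb1ip1 encodes a ubiquitin ligase of meiotic crossing over. Its raw counts were 0 and 0 in WT, 21 and 37 with ACreb3l2, 16 and 13 with AXBP1, and 22 and 10 with both transgenes. It was too low to be tested, and the limits were set after the values were seen.

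The counts of Rprl3 and Ccnb1ip1 over the transgenic libraries are set side by side as a description. There were 7.1 to 12.7 counts of Rprl3 for each count of Ccnb1ip1, while Rprl3 itself ranged from 71 to 281 counts. This ratio rests on 10 to 37 counts of Ccnb1ip1, and how often other low genes stay as close was not tested. Ccnb1ip1 had 0.0678 to 0.256 counts per 1000 counts of Rpph1 in these libraries. The genes lie on chromosomes 8 and 14, and what they share in the annotation is sequence of, or overlap with, Rpph1. Reads within that overlap can be counted for neither gene or for either, depending on a counting setting that is not stated. What part such reads had in either result was not tested.

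**Figure D2:**
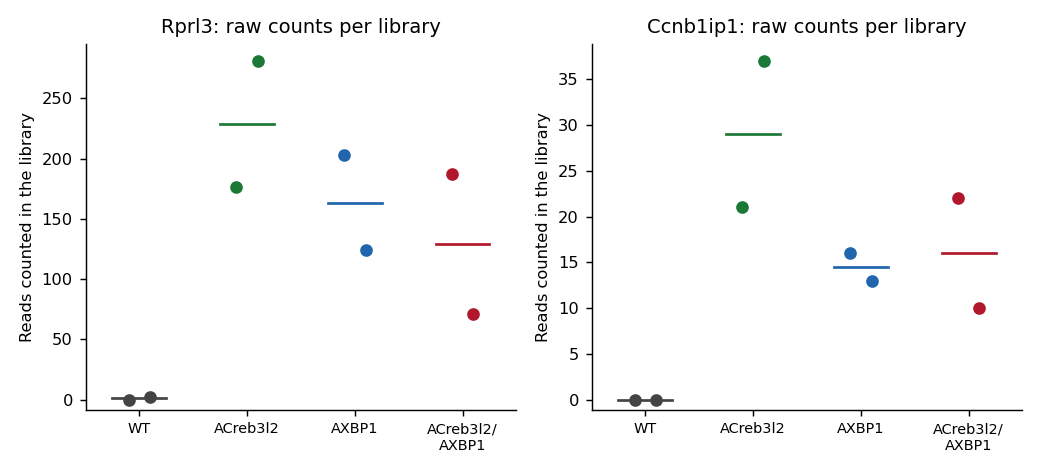
Raw counts per library (y axis, reads) of Rprl3 (left) and Ccnb1ip1 (right) in the 4 groups, with a point for each library and a line at the group mean. Both WT libraries sit at 0 to 2 reads, while the transgenic libraries hold 71 to 281 reads of Rprl3 and 10 to 37 of Ccnb1ip1.

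The other genes like the RNase P RNA had few counts. Rprl1 had none in any library. Rprl2, which matched Rpph1 at 87.8% of its 279 aligned bases, tail included, against 88.2% of 279 for Rprl3, had 0 to 3 counts in each library, with 1 and 0 in WT. The neighbours of Rprl3 had next to none, with 0 counts of the miRNA gene Gm24934 and at most 1 of the pseudogene Gm7381 in a library. Rprl3 therefore had no counted neighbour with which to compare it.

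Rpph1 was higher in 1 WT library than elsewhere. Its normalized counts were 166200 and 299200 in WT, 180100 and 164900 with ACreb3l2, 135100 and 174300 with AXBP1, and 149400 and 130900 with both transgenes. WT replicate 1 lay among the ACreb3l2 and AXBP1 libraries, whereas both ACreb3l2/AXBP1 libraries lay below both WT libraries, as they did for 28.7% of all genes tested. The means were 232700 ± 94000 (SD, n = 2) in WT, 172500 ± 10800 with ACreb3l2, 154700 ± 27700 with AXBP1 and 140200 ± 13100 with both transgenes.

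Rmrp, the sister RNA, had the same shape. Its normalized counts were 32100 and 61610 in WT, 34440 and 37970 with ACreb3l2, 28420 and 35660 with AXBP1, and 28650 and 23440 with both transgenes. Again WT replicate 2 stood alone at the top, and both ACreb3l2/AXBP1 libraries lay below both WT libraries, the order seen for 28.7% of genes. The means were 46860 ± 20900 (SD, n = 2) in WT, 36200 ± 2500 with ACreb3l2, 32040 ± 5120 with AXBP1 and 26050 ± 3680 with both transgenes.

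The ratio of the 2 ribozyme RNAs ranged from 4.34 to 5.58, and it does not depend on how libraries are scaled. There were 5.18 and 4.86 counts of Rpph1 per count of Rmrp in WT, 5.23 and 4.34 with ACreb3l2, 4.75 and 4.89 with AXBP1, and 5.22 and 5.58 with both transgenes. Over the same libraries, the highest level of Rpph1 was 2.29 times its lowest, and that of Rmrp 2.63 times. The ratio of Rn7sk to Rpph1, equally free of scaling, was lower in WT, at 2.39 and 1.92 counts of Rn7sk per count of Rpph1, than with AXBP1, at 3.32 and 2.82, or with both transgenes, at 3.08 and 3.29. With ACreb3l2 it was 2.31 and 3.05 and overlapped with WT. With groups of 2 these ratios were not tested, and how often ratios of other genes separate groups in this way was not counted.

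Rn7sk overlapped across groups. Its normalized counts were 396700 and 573300 in WT, 415200 and 503000 with ACreb3l2, 448600 and 490700 with AXBP1, and 459800 and 430700 with both transgenes. The 2 WT libraries held both its lowest and its highest value, with all transgenic libraries between them. The highest level was 1.45 times the lowest.

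Scarna2 had the narrowest range of the abundant RNAs. Its normalized counts were 8649 and 11470 in WT, 11070 and 10520 with ACreb3l2, 8495 and 9518 with AXBP1, and 9656 and 8919 with both transgenes. The groups overlapped with WT, and the highest level was 1.35 times the lowest.

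**Figure D3:**
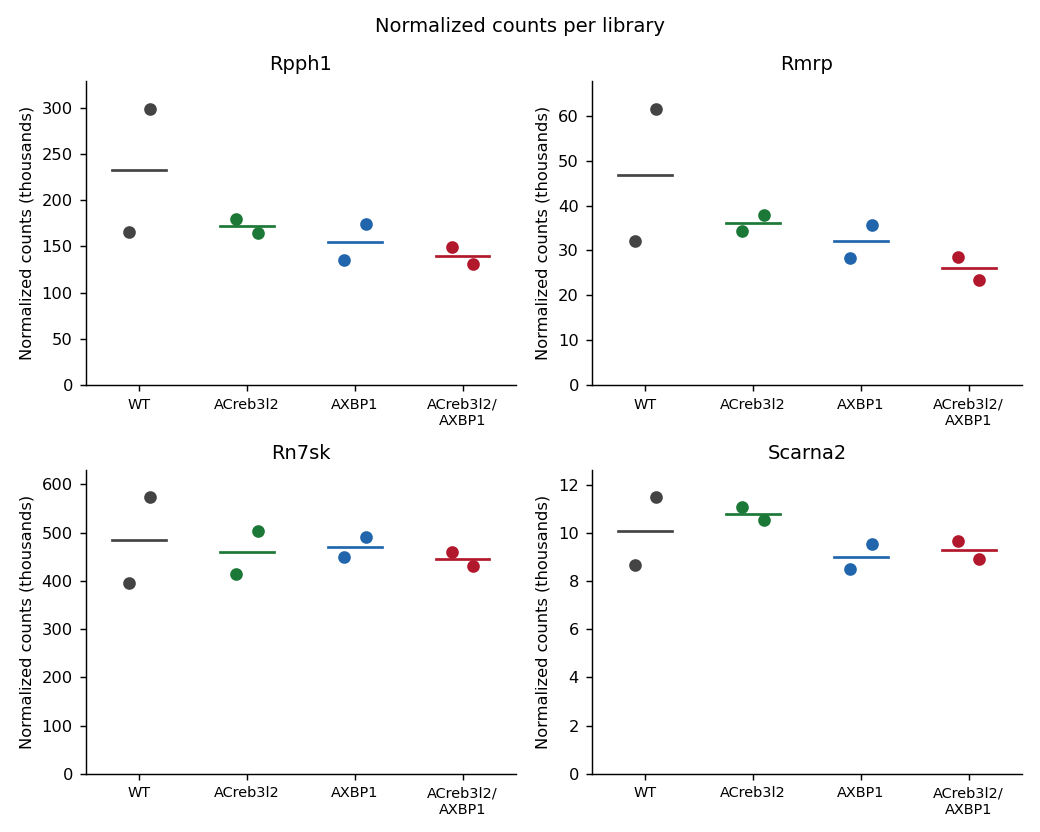
Normalized counts divided by 1000 (y axis, from 0) of Rpph1, Rmrp, Rn7sk and Scarna2 in the 4 groups, with a point for each library and a line at the group mean. WT replicate 2 is the highest library for all 4 RNAs, most of all for Rpph1 at 299200 and Rmrp at 61610.

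Rpph1, Rmrp, Rn7sk and Scarna2 were selected on level, so their differences from WT were tested, with edgeR's quasi-likelihood test over all 15580 genes that passed the limit on low counts and Benjamini-Hochberg adjustment. None of the 4 was called at an adjusted p under 0.05 in any of the 3 comparisons, and DESeq2 called none either, where it called 5.15%, 0.562% and 14.1% of the genes to which it gave an adjusted p. The unadjusted p was under 0.05 for 0 of 4 in ACreb3l2, 1 in AXBP1 and 2 with both transgenes, where the shares over all genes were 16.8%, 9.97% and 29.7%. Over all genes 3.04% were called in ACreb3l2, 0% in AXBP1 and 10.1% with both transgenes. In AXBP1 DESeq2 called 79 genes, and 1554 had an unadjusted p under 0.05. The p-values measure the spread between pools of lobes.

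For Rpph1 the log2 change against WT was -0.43 ± 0.253 (SE) in ACreb3l2 (adjusted p = 0.44), -0.59 ± 0.254 in AXBP1 (adjusted p = 0.5) and -0.73 ± 0.254 with both transgenes (adjusted p = 0.101). The 95% interval in ACreb3l2/AXBP1 ran from -1.31 to -0.15. For Rmrp the log2 changes were -0.37 ± 0.292 (adjusted p = 0.581), -0.55 ± 0.292 (adjusted p = 0.554) and -0.85 ± 0.293 (adjusted p = 0.114), with an interval from -1.55 to -0.15 in ACreb3l2/AXBP1. Both RNAs thus had negative estimates against WT in all 3 comparisons, none of which passed after adjustment. The 3 comparisons share the same WT libraries.

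WT replicate 2 set the size of these estimates. Without it the log2 change of Rpph1 was 0.05 for ACreb3l2, -0.11 for AXBP1 and -0.25 for both transgenes, and that of Rmrp 0.17, 0 and -0.31. Without WT replicate 1, Rpph1 stood at -0.79, -0.95 and -1.09 and Rmrp at -0.77, -0.94 and -1.24. In that fit the adjusted p of Rpph1 was 0.0398 for ACreb3l2, 0.117 for AXBP1 and 0.00727 for both transgenes. With both transgenes the lowest edgeR adjusted p over all alternatives was 1.08e-13 for Rpph1 and 9.54e-16 for Rmrp, beside 0.101 and 0.114 in the main test. Both lowest values came without the limit on low counts, a setting that called 3209 genes in all against 1566. What part the high Pomc share of WT replicate 2 had in these log2 changes was not tested.

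**Figure D4:**
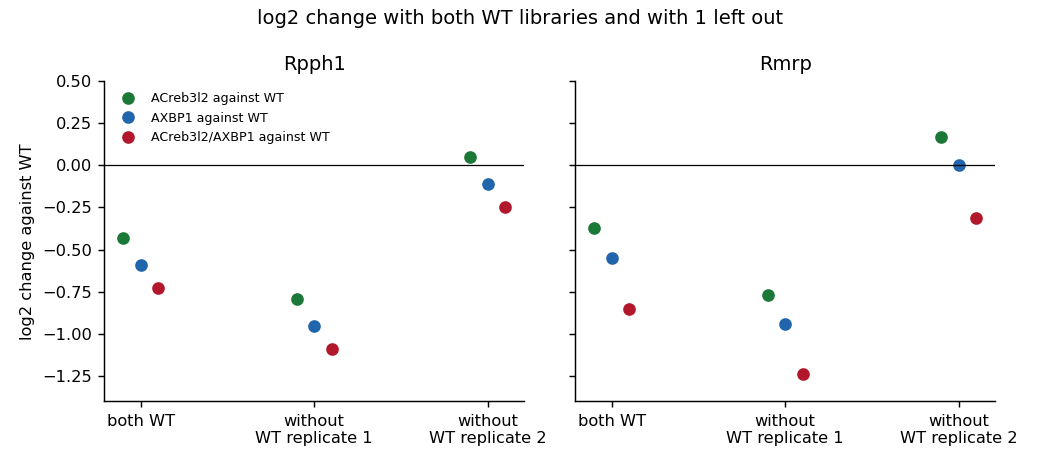
log2 change against WT (y axis) of Rpph1 (left) and Rmrp (right) in the 3 transgenic groups, with both WT libraries in the fit and with either left out (x axis). Points sit lowest without WT replicate 1, down to -1.24 for Rmrp, and highest without WT replicate 2, where they run from -0.31 to 0.17.

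For Rn7sk the log2 changes were -0.08, -0.05 and -0.12 (SE 0.188 each), and scaling by library size alone turned them to 0.01, 0.02 and 0.05. Their 95% intervals reached from -0.54 to 0.37, and changes within them could not be detected. For Scarna2 the log2 changes were 0.1 ± 0.128 for ACreb3l2, -0.16 ± 0.128 for AXBP1 and -0.12 ± 0.128 for both transgenes, the last of which became 0.05 with library size alone. The intervals of Scarna2 lay between -0.45 and 0.39. The lowest adjusted p among these was 0.573.

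**Figure D5:**
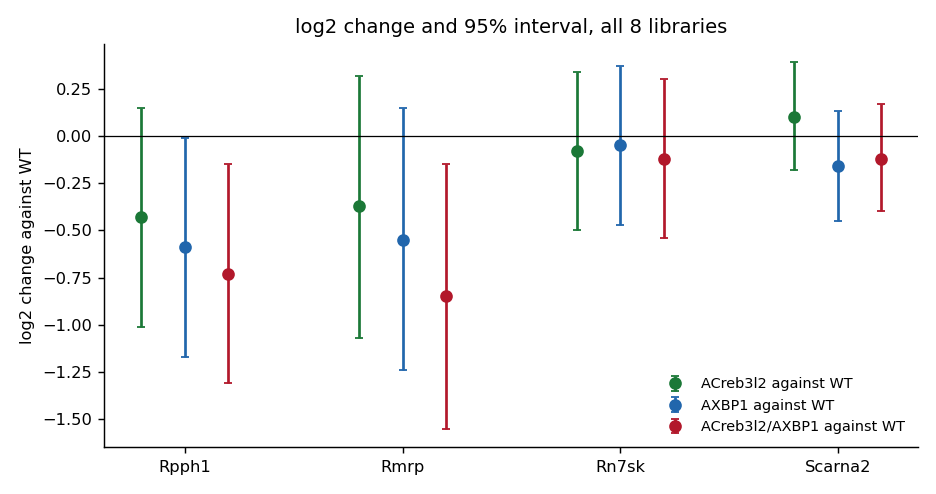
log2 change against WT (y axis) of the 4 RNAs selected on level, by transgenic group, with all 8 libraries in 1 fit. Points are estimates and bars 95% intervals, and the intervals of Rpph1 in AXBP1 (-1.17 to -0.01) and ACreb3l2/AXBP1 and of Rmrp in ACreb3l2/AXBP1 lie below 0 before adjustment.

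Between the transgenic groups, none of the 5 RNAs was called by edgeR or by DESeq2, and none had an unadjusted p under 0.05, as 9.49%, 7.14% and 11.1% of all genes did in the order ACreb3l2 against AXBP1, ACreb3l2/AXBP1 against ACreb3l2 and ACreb3l2/AXBP1 against AXBP1. Over all genes 0.719% were called for ACreb3l2 against AXBP1, 0% for ACreb3l2/AXBP1 against ACreb3l2 and 0.623% for ACreb3l2/AXBP1 against AXBP1. DESeq2 called 1.7%, 0.335% and 1.96% in the same order. For ACreb3l2/AXBP1 against ACreb3l2 it called 41 genes, and 1112 had an unadjusted p under 0.05 in edgeR. The estimate nearest to a call was Scarna2 in ACreb3l2 against AXBP1, a log2 change of 0.26 ± 0.128 with an adjusted p of 0.579. The interaction of the transgenes, tested for the 4 RNAs selected on level, was 0.29 ± 0.357 for Rpph1, 0.07 ± 0.412 for Rmrp, 0 ± 0.266 for Rn7sk and -0.06 ± 0.181 for Scarna2 on the log2 scale. Each of them had an adjusted p of 1.

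The genes beside the abundant RNAs were measured too. Ccdc107, which overlaps Rmrp on the other strand, had 1117 and 2080 normalized counts in WT and 789 to 1305 in the transgenic libraries, so that its high library was also WT replicate 2. Whether the counting step used strand is not stated, and reads of this overlap may belong to Rmrp. Parp2, a DNA repair gene beside Rpph1, had 750 and 751 normalized counts in WT and 724 to 811 elsewhere. It was not high in WT replicate 2 as Rpph1 was. Ick, a kinase gene 3196 bases from Rn7sk, fell in ACreb3l2 by 0.51 ± 0.0972 on the log2 scale with an edgeR adjusted p of 0.0224, a call lost without WT replicate 2 and without any single ACreb3l2 or AXBP1 library. The noncoding gene C920006O11Rik, 281 bases from Rn7sk, had WT levels of 100 and 75.3 normalized counts, against 46.4 and 51.4 in ACreb3l2, a log2 change of -0.85 ± 0.257 that did not pass (adjusted p = 0.127). In AXBP1 and ACreb3l2/AXBP1 the log2 changes were 0.06 and -0.32 for Ick and 0.37 and -0.62 for C920006O11Rik, none called by edgeR. The neighbours Sit1, Arhgef39 and Gm43435 had at most 5 counts in a library, and 1700013F07Rik had 19 to 49.

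Of 53 tested genes for proteins that bind or make these RNAs, 3.77% were called in ACreb3l2, 0% in AXBP1 and 13.2% with both transgenes, beside the 3.04%, 0% and 10.1% over all genes. Where 3 values are given for a gene or list, they are for ACreb3l2, AXBP1 and ACreb3l2/AXBP1 against WT, in that order. Of 11 listed proteins of RNase P and RNase MRP, 10 were tested and none was called in any comparison with WT, by edgeR or DESeq2, while the unadjusted p was under 0.05 for 1 with ACreb3l2, 4 with AXBP1 and 2 with both transgenes. Their median log2 change was -0.11, -0.17 and -0.07, beside 0.01, 0 and 0.01 over all genes. Pop1, the largest subunit, had log2 changes of -0.04, -0.38 and -0.18. Rpp38 had -0.32, -0.42 and -0.21, and Rpp30 had 0.07, 0.05 and 0.32.

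Of the 7 genes of the 7SK particle and P-TEFb, all were tested and none was called, by edgeR or DESeq2. The unadjusted p was under 0.05 for 2, 0 and 2 of them. Over the 53 genes of all 4 protein lists that share was 22.6%, 18.9% and 30.2%, beside 16.8%, 9.97% and 29.7% over all genes. Larp7, which protects the 3′ end of 7SK, had log2 changes of -0.02, -0.12 and 0.0. Mepce, which caps it, had 0.09, 0.14 and 0.16. Hexim1, the inhibitor, had 0.17, -0.05 and 0.11, and Cdk9, the kinase of P-TEFb, had -0.02, -0.05 and 0.03.

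Of 13 tested genes for proteins of nucleolar and Cajal body particles, 4 fell in ACreb3l2/AXBP1, where 6.99% of all genes were called lower. None was called in ACreb3l2 or AXBP1, in which 4 and 3 had an unadjusted p under 0.05 (16.8% and 9.97% over all genes) and DESeq2 called 2 and 1 (5.15% and 0.562% over all genes). Nop56, a core protein of box C/D particles, had WT levels of 3055 and 3481 normalized counts, against 2315 and 1843 in ACreb3l2/AXBP1. Its log2 change there was -0.65 ± 0.117 with an edgeR adjusted p of 0.0108. Nhp2, a core protein of box H/ACA particles, fell by 0.63 ± 0.121 (adjusted p = 0.0138) and Nolc1, a nucleolar phosphoprotein, fell by 0.60 ± 0.115 (adjusted p = 0.0138). Nop58, the partner of Nop56, is named because the count is small, and fell by 0.36 ± 0.0945 (adjusted p = 0.0431). None of these 4 was called without WT replicate 2 or without ACreb3l2/AXBP1 replicate 2, and the call of Nop58 was also lost with library size alone and without any other single library apart from ACreb3l2/AXBP1 replicate 1. Fbl, the methyltransferase of these particles, had log2 changes of -0.15, -0.19 and -0.34, and Coil, the scaffold of the Cajal body, had 0.01, -0.11 and 0.01, none called.

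Of 23 genes of RNA polymerase III and its factors for such promoters, 2 fell in ACreb3l2, where 2.5% of all genes were called lower and 0.539% higher. Polr3d, a subunit of the polymerase, had WT levels of 1705 and 1857 normalized counts, 935 and 804 with ACreb3l2, 1423 and 1423 with AXBP1, and 880 and 726 with both transgenes. It fell by 1.03 ± 0.117 on the log2 scale in ACreb3l2 (adjusted p = 0.00189) and by 1.15 ± 0.117 in ACreb3l2/AXBP1 (adjusted p = 0.00101). Its adjusted p stayed at or under 0.0295 in ACreb3l2 and 0.0137 in ACreb3l2/AXBP1 over all alternatives. Polr3e, another subunit, fell by 0.41 ± 0.0909 (adjusted p = 0.0435) and 0.44 ± 0.0908 (adjusted p = 0.0179) in the same groups, but with a library left out it was called in ACreb3l2 only without ACreb3l2/AXBP1 replicate 2. In ACreb3l2/AXBP1 the call of Polr3e was lost without WT replicate 2 and without ACreb3l2/AXBP1 replicate 2, with adjusted p up to 0.133.

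In ACreb3l2/AXBP1 1 gene of this list rose, where 3.06% of all genes were called higher. This was Pou2f1, which encodes the factor Oct-1, with 1667 and 1628 normalized counts in WT and 2118 and 2263 in ACreb3l2/AXBP1, a log2 change of 0.41 ± 0.114 (adjusted p = 0.0488). It was not called without either WT library, either AXBP1 library or either ACreb3l2/AXBP1 library, with adjusted p up to 0.287. None of the other 20 was called in either group. Polr3a, the catalytic subunit, had log2 changes of -0.13, -0.05 and 0.03. Brf2, the initiation factor of these promoters, had 0.08, 0.01 and -0.02, and Ssb, the La protein that binds new polymerase III transcripts, had -0.10, -0.05 and -0.03. Maf1, the repressor of the polymerase, had 0.25 ± 0.0762 in both ACreb3l2 and ACreb3l2/AXBP1, with adjusted p of 0.127 and 0.0646. In AXBP1 none of the 23 was called by edgeR or DESeq2, and 3 had an unadjusted p under 0.05.

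Other noncoding RNAs were low or did not pass. Of 27 listed RNAs, 26 were in the table and 16 were tested, and none was called in a comparison with WT by edgeR or DESeq2. The unadjusted p was under 0.05 for 0, 1 and 2 of them. Their median log2 change was -0.06, -0.2 and -0.17. The short noncoding RNA genes apart from the 5 held 0.0767% to 0.103% of counts in all. Of the 5, all but Rprl3 were selected for high counts, so their larger share was set by that choice.

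The genes whose log2 counts followed each RNA most closely over the 8 libraries are given as a description, since a high WT replicate 2 alone can tie genes together. For Rpph1 they included Rps10 (Pearson r 0.987) and Gstp1 (0.975), with Rmrp at 0.97. For Rmrp they were Ndufa10 (0.981), Rn7s2 (0.978), an RNA of the signal recognition particle, and Tmem176a (0.978). Rprl3 was followed most closely by Kif7 (0.966), Wnt3 (0.96) and Shc3 (0.953) over the same 8 libraries, an order that takes in the gap to WT by which Rprl3 was selected. Kif7 had 91 and 74 counts in WT, and Wnt3, a low gene, had 7 and 6. For Rn7sk they were C78197 (0.962), Gm22154 (0.959) and Ift46 (0.956), and for Scarna2 Caly (0.995), Hsp90ab1 (0.974) and Zgpat (0.973).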

How the data were processed

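The deposited counts give, for each Ensembl gene, the number of reads as a whole number. The authors trimmed 50-base paired reads, aligned them to mm10 and counted them with HTSeq. The annotation release and the strand setting are not given in the sources used here. The authors also deposited FPKM values (fragments per kilobase, scaled to library depth), which gave the gene names. Groups came from the labels (8 libraries, 4 groups), and every column matched a label. Members and gene lists were chosen with earlier results of these data known.

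Genes with a mean median-ratio normalized count above 20 were tested in edgeR 4.0.16 (R 4.3.3): TMM, 1 mean per group, two-sided quasi-likelihood test, Benjamini-Hochberg adjustment. The 15580 genes tested held 99.9% of counts. The alternatives were median-ratio (RLE) factors, library size alone, factors without the 5 members, no count limit, DESeq2 1.42.0, only the groups compared, a replicate block, limma 3.58.1 on log2(FPKM + 0.1), and each library left out in turn. The fit was tested on simulated data. Replicate libraries differed by more than sampling noise (chi-squared per degree of freedom 10.7 to 48.5).

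Named genes were, by rule, the members, Rprl1, Rprl2, genes next to members, fixed defining partners, and up to 3 called genes per partner list (up to 5 noncoding RNAs), by largest log2 change. Likeness was Pearson's r of log2 CPM (prior count 2), with the top 3 genes named per member, 1 of which is not reported here.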

Additional observations from a re-analysis of the deposited data

How the results depend on the processing

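No other scaling, tool or set of libraries called any of the 4 abundant RNAs against WT, apart from 2 settings: testing all genes without the limit on low counts called 2 of 4 (Rpph1 and Rmrp) in each of the 3 comparisons, and leaving out WT replicate 1 called 2 in ACreb3l2 and 2 in ACreb3l2/AXBP1. With each library left out in turn the count ran from 0 to 2 in both. Without the limit on low counts, 3 of 5 (Rpph1, Rmrp and Rprl3) were called for ACreb3l2/AXBP1 against ACreb3l2. That setting also called most genes of all: 1455 against 473 in ACreb3l2, 628 against 0 in AXBP1 and 3209 against 1566 in ACreb3l2/AXBP1. The fewest were 152 for ACreb3l2, with its replicate 2 left out, and 215 for ACreb3l2/AXBP1, also less replicate 2. Between transgenic groups all genes called ran from 16 to 730 for ACreb3l2 against AXBP1 (112 in the main test), from 0 to 513 for ACreb3l2/AXBP1 against ACreb3l2 (0) and from 7 to 755 against AXBP1 (97). The causes were not tested.

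Partner genes called in ACreb3l2 were 2 in the main test, 1 with library size alone, with the replicate block, with only the compared groups and with FPKM in limma, 4 with DESeq2 and 6 without the limit on low counts. They ran from 1 to 2 with a library left out. In AXBP1 they were 0, and 1 with DESeq2 or without the limit. In ACreb3l2/AXBP1 they were 7, 4 with only the compared groups, and 1 to 7 with a library left out, the lowest without WT replicate 2 or ACreb3l2/AXBP1 replicate 2, where Polr3d alone remained.

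Signs turned as follows. With library size alone Rn7sk had log2 changes of 0.01, 0.02 and 0.05 in ACreb3l2, AXBP1 and ACreb3l2/AXBP1, and Scarna2 0.05 in ACreb3l2/AXBP1. With a library left out, Rpph1 in ACreb3l2 ran from -0.79 to 0.05 and Rmrp from -0.77 to 0.17. Rn7sk ran from -0.32 to 0.21, -0.29 to 0.24 and -0.36 to 0.16, and Scarna2 from -0.09 to 0.32, -0.35 to 0.06 and -0.30 to 0.10. Rprl3 ran from -0.18 to 0.90 for ACreb3l2 against AXBP1, from -1.45 to 0.10 for ACreb3l2/AXBP1 against AXBP1 and, with no turn of sign, from -1.89 to -0.30 against ACreb3l2. A lone library left in a group was taken to vary like the others.

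From FPKM the 5 RNAs held 15.0% in WT, 13.4% with ACreb3l2, 13.7% with AXBP1 and 15.1% with both transgenes, as that unit divides by length, and Rprl3 stood at 2.27 per 1000 Rpph1 in ACreb3l2 and 1.83 in AXBP1. With protein-coding counts as denominator the share in ACreb3l2/AXBP1 was 2.15%. The Rprl3 ratio to WT ran from 103 to 312 in ACreb3l2, 79.8 to 195 in AXBP1 and 55.3 to 180 in ACreb3l2/AXBP1 with a library left out, and could not be computed without WT replicate 2.

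Replicate numbers are shared between groups, but deviations of same-numbered libraries correlated at -0.197 to 0.0887 between groups, so the numbers do not pair the libraries. With the replicate block the log2 change of Rpph1 in ACreb3l2/AXBP1 was -0.69 and 0 of 4 abundant RNAs were called in each comparison with WT. Genes called in all were 321, 3 and 1113 in ACreb3l2, AXBP1 and ACreb3l2/AXBP1. With WT and ACreb3l2/AXBP1 numbers crossed, chosen after seeing the data, 3099 genes, 10 partner genes and 0 of the 4 were called. Depth limits Rprl3 in WT, where 3 counts equal 2.91 and 3.27 normalized counts.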
